A study of Mus musculus with 10 samples.

Results

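The adrenergic receptors and their signalling genes in the mouse left ventricle were Adra1a, Adra1b, Adrb1, Adrb3, Adcy5, Adcy6, Grk5, Rgs2 and Rgs4. These 9 genes were chosen by name and not by a limit on their values, and 10 of the 26423 array probes carried their symbols. Left-ventricle RNA came from male C57BL/6J mice aged 8 weeks that received transverse aortic banding (TAB), which narrows the aorta and loads the left ventricle with pressure, or a sham operation. It was taken 3, 5 and 7 days and then 14 and 28 days after surgery, with 1 TAB and 1 sham sample on each day and 10 samples in all. The labels name no altered allele and no drug other than the isoflurane anaesthetic in either group. The number of mice behind a sample was not stated. A further label of the TAB sample of day 14 reads 15 days, and it was used as day 14.

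Noradrenaline from sympathetic nerves and circulating adrenaline act on the heart through receptors of the alpha-1 and beta families. Beta receptors couple through the stimulatory G protein to adenylyl cyclase, which makes cAMP, the activator of protein kinase A (PKA), and raise the rate and force of the beat. Alpha-1 receptors couple through Gq to phospholipase C and are known for their part in the growth of heart muscle cells. Receptor kinases and arrestins switch off the occupied receptor, and RGS proteins switch off the G protein. A loss of beta receptor signalling is a known feature of the failing heart.

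Rgs2, which was lower after TAB, Rgs4, its relative, for which no difference was detected, and Grk5, which was higher, are shown by the 250 bases before their gene starts, since the cAMP pathway ends at a transcription factor that binds a known element. The sequences are from RefSeq on the build GRCm38.p6 and run 5′ to 3′ on the strand of the gene. Capitals mark the core of the cAMP response element, TGACG, or CGTCA where it lies on the opposite strand.
Rgs2, chr1:144004150-144004399 (- strand): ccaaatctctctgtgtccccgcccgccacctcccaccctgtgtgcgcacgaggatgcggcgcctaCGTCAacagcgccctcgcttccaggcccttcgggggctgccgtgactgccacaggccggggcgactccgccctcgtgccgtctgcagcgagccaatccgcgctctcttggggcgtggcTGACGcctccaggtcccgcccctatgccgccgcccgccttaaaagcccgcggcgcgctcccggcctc
Rgs4, chr1:169747643-169747892 (- strand): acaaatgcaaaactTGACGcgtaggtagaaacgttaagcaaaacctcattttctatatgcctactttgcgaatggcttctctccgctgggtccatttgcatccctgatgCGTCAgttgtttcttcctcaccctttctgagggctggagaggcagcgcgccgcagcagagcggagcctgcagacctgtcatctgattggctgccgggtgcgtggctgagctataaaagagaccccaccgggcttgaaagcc
Grk5, chr19:60889499-60889748 (+ strand): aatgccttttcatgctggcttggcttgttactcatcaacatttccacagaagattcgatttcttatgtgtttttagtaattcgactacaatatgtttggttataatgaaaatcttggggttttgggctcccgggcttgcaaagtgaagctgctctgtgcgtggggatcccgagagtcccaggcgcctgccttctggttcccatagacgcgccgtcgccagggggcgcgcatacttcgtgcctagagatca
The Rgs2 sequence held the core 2 times, with starts 67 and 185 bases before the gene start. In the Rgs4 sequence the core also occurred 2 times, 141 and 236 bases before the start, and in the Grk5 sequence it did not occur. Of the 9 genes 6 had an entry in the promoter table (not Adra1a, Adrb3 and Adcy6), and Adrb1 was the other one with the core, 1 time. None of the 7 promoter windows of these genes held the full element TGACGTCA, which contains the core. Over all 32851 promoter windows of 300 bases, searched on both strands, 20.81% held the core and 1.79% the full element. A match is a match of letters and was not tested as a binding site.

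The authors deposited 1 background-subtracted intensity per probe and array. A flag marks spots that were read here as not found by the image software, a common use of that value whose meaning the sources do not state. The raw median intensity ranged from 34 to 57 over the 10 arrays, and 40.2% to 47.3% of spots were not found, with the lowest median and the highest share on the TAB array of day 3. After scaling to a common median, removal of probes below 1 in any sample and quantile normalization, 19976 probes remained. All 10 listed heart muscle cell markers were found on all arrays, and none differed between TAB and sham past the threshold (adjusted p under 0.05, limma). Averaged over the 5 days, with day as a block, 7.47% of the kept probes passed the threshold as higher after TAB and 6.73% as lower. The share of calls that were higher was 52.6%, against 66.4% with median scaling alone and 65.5% with quantile normalization within each operation. Each sample is the only one of its operation and day, so the days serve as replicates, and the p-values measure the spread of the TAB effect between days.

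Of the 9 genes, Grk5 was up-regulated and Rgs2 was down-regulated after TAB, and 7 did not pass the threshold. Each gene had 1 kept probe. The other Adrb1 probe was found on 0 arrays, with raw intensities between −4 and 4, and was removed. 5 of the kept probes (Adrb1, Adcy5, Adcy6, Grk5, Rgs4) were found on all 10 arrays. The mean log2 ratio of TAB over sham was above 0 for 4 genes and below 0 for 5, with a median of −0.24, against −0.05 over all kept probes. All 5 TAB values lay below all 5 sham values for Adcy6 and Rgs2, as for 7.59% of all kept probes, and no gene had all TAB values above all sham values, as 8.78% of the probes did.

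**Figure D1:**
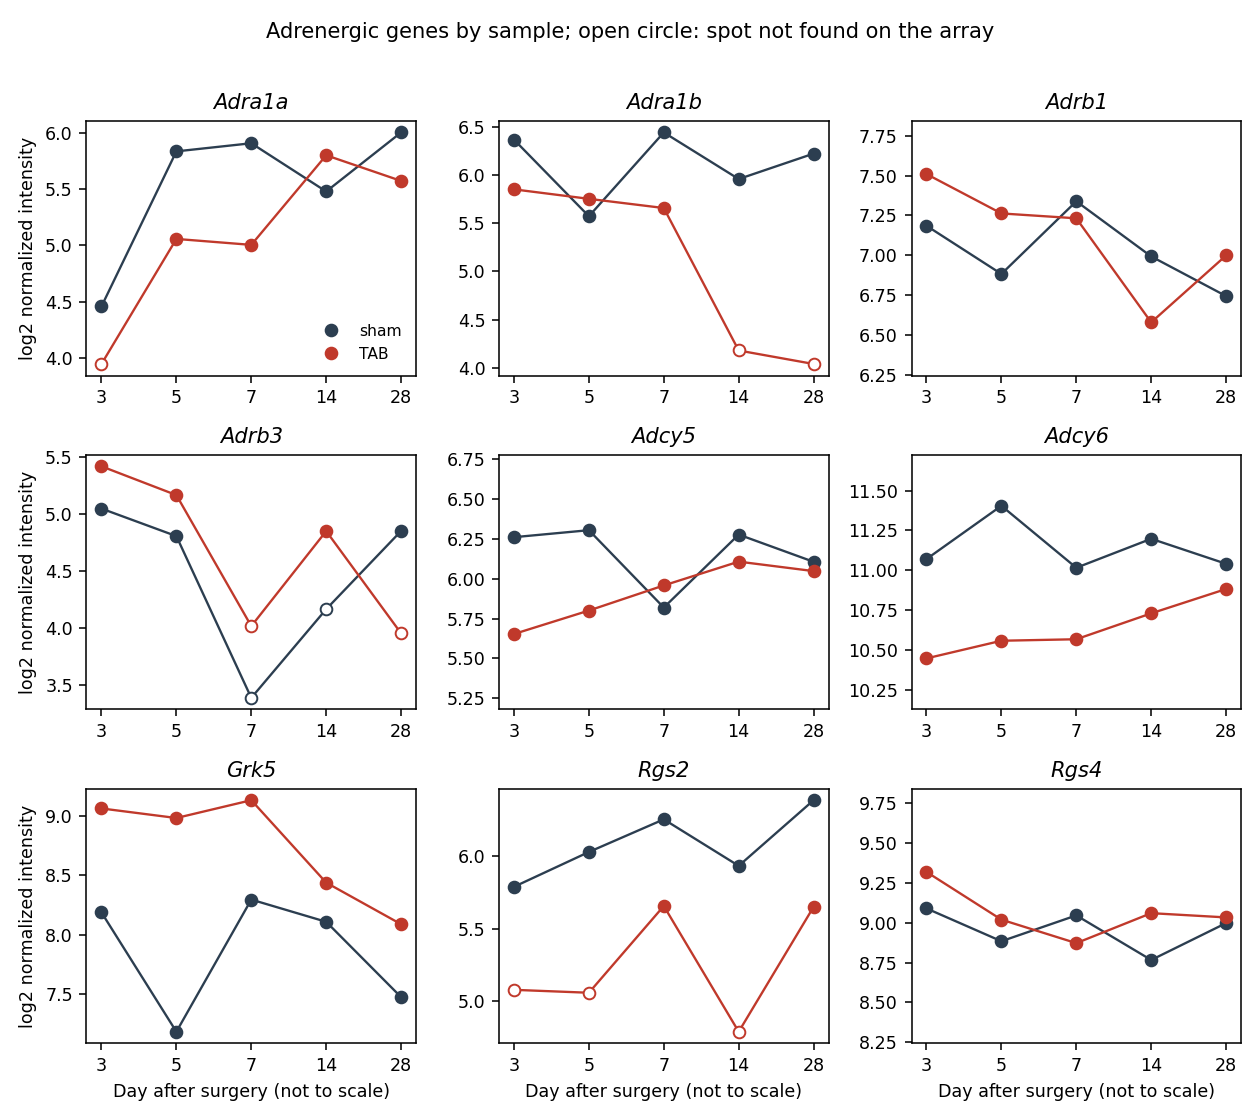
Log2 normalized intensity of the 9 genes by day after surgery, with 1 point per sample, TAB in red and sham in dark blue, and open circles for spots not found on the array. Each panel has its own vertical axis, and levels of different probes are not comparable. TAB lies above sham on all 5 days for Grk5 and below it on all 5 days for Adcy6 and Rgs2.

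Grk5 is a kinase that phosphorylates occupied beta receptors and so prepares them for arrestin binding. Its normalized intensity after TAB was 534, 505, 560, 347 and 272 in the order of the 5 days. In sham hearts it was 292, 146, 314, 276 and 178 in the same order. TAB was higher within every day, but the TAB value of day 28 lay within the range of the sham values, so the groups overlapped. The sham value of day 5 was the lowest of the 10, and the widest gap fell on that day, with a log2 ratio of 1.80, against 0.87 and 0.83 (days 3 and 7) and 0.33 and 0.61 (days 14 and 28). On average Grk5 was 1.85-fold higher after TAB, a log2 ratio of 0.89 (SE 0.22, 95% interval 0.36 to 1.42, limma adjusted p = 0.0471, 5 days). The SD of the log2 values was 0.46 among TAB and 0.49 among sham samples. The call was lost when any 1 of the 5 days was left out, with log2 ratios from 0.66 (without day 5) to 1.03 (without day 14) and adjusted p-values from 0.0647 to 0.127.

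Rgs2 shortens signalling by accelerating the switch-off of G proteins, with a known preference for Gq. Its normalized intensity in sham hearts was 55.3, 65.4, 76.4, 61.2 and 83.8 from day 3 to day 28. After TAB it was 33.8, 33.3, 50.5, 27.6 and 50.3 in this order. Every TAB value lay below every sham value. The spot was found on all 5 sham arrays but on 2 of the 5 TAB arrays (days 7 and 28). On the other days, with the TAB spot at its measured value, Rgs2 was 1.64-fold lower (day 3), 1.96-fold lower (day 5) and 2.22-fold lower (day 14). With the 3 spots not found taken at their measured values, the fit gave a mean log2 ratio of −0.83 (SE 0.12, 95% interval −1.13 to −0.54, limma adjusted p = 0.0205). It stayed between −0.89 (without day 7) and −0.76 (without day 14) when a day was left out. The call was then lost without day 3, 5, 7 or 14 (adjusted p from 0.0519 to 0.0790) and held without day 28. With 50 added to the intensities before log2, which shrinks the ratios of dim probes, the ratio was −0.41 (limma adjusted p = 0.00670).

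Rgs4, a relative of Rgs2 that acts on Gi and Gq, gave bright spots on all arrays. Normalized intensities were 639, 519, 468, 534 and 524 after TAB and 545, 472, 529, 435 and 511 after sham surgery, from the earliest day to the latest. The 2 groups overlapped, and TAB was higher on 4 days and lower on day 7. The mean log2 ratio was 0.10 (SE 0.11, 95% interval −0.17 to 0.38, limma adjusted p = 0.566), so a mean change of more than 0.38 in either direction lay outside the interval.

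Adcy5 and Adcy6 are the main adenylyl cyclases of heart muscle cells and make cAMP when the stimulatory G protein binds them. The normalized intensity of Adcy6 was 2151, 2712, 2071, 2349 and 2107 in sham hearts, in the order of the days, and 1395, 1507, 1517, 1698 and 1888 after TAB. All TAB values lay below all sham values, with the widest gap on day 5 and the narrowest on day 28, where the log2 ratios were −0.85 and −0.16. Over the 5 days Adcy6 stood at 70.2% of sham, a mean log2 ratio of −0.51 (SE 0.13, 95% interval −0.83 to −0.19). This missed the threshold (limma adjusted p = 0.0509). It passed in 7 of 15 alternative settings, with adjusted p-values between 0.00988 and 0.141 over all of them.

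Adcy5 had normalized intensities of 50.3, 55.7, 62.2, 69.0 and 66.2 after TAB and 76.7, 79.1, 56.5, 77.6 and 68.9 after sham surgery. The TAB values of days 3 and 5 were the lowest of all 10, and on the later days the samples lay close together. Its mean log2 ratio was −0.24 (SE 0.15, 95% interval −0.59 to 0.11, limma adjusted p = 0.297), and it ranged from −0.34 (without day 7) to −0.15 (without day 3) when a day was left out.

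Of the 9 genes, Adra1b had the widest range of ratios over the days. This receptor acts through Gq and had normalized intensities of 82.5, 47.6, 86.8, 62.1 and 74.6 in sham hearts in the order of the days. After TAB the values were 57.7, 53.9, 50.5, 18.1 and 16.5. The values of days 14 and 28 after TAB stood far below the other 8, and the spot was not found on these arrays, whereas it was found on all others. With these TAB spots at their measured values, Adra1b was 3.43-fold lower on day 14 and 4.53-fold lower on day 28. Both ratios (log2 −1.78 and −2.18) passed 2 SDs of the day over all kept probes, the limit used per day, which was 1.46 on day 14 and 1.38 on day 28. On day 5 TAB was the higher sample, with a log2 ratio of 0.18. With the spots not found at their measured values, the mean log2 ratio over the days was −1.01 (SE 0.36, 95% interval −1.88 to −0.15), which missed the threshold (limma adjusted p = 0.105).

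Adra1a, the other alpha-1 receptor, had normalized intensities of 22.0, 57.1, 60.0, 44.6 and 64.1 in sham hearts and 15.4, 33.3, 32.1, 55.7 and 47.6 after TAB. TAB was lower on 4 days and higher on day 14, and the groups overlapped. On day 3 both samples were low, and the spot was not found on the TAB array. The mean log2 ratio was −0.46 (SE 0.20, 95% interval −0.93 to 0.01, limma adjusted p = 0.157). It ranged from −0.66 (without day 14) to −0.35 (without day 7) when a day was left out, with limma adjusted p-values from 0.0628 to 0.356.

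Adrb1, the main beta receptor of heart muscle cells, had normalized intensities of 182, 154, 150, 95.5 and 128 after TAB and 145, 118, 162, 127 and 107 after sham surgery. TAB was higher on days 3, 5 and 28 and lower on days 7 and 14. The mean log2 ratio of 0.09 (SE 0.15, 95% interval −0.28 to 0.46, limma adjusted p = 0.729) was smaller than the spread between days. Adrb3, a beta receptor best known from fat tissue, was near the limit of what the arrays found, on 3 of 5 arrays of each operation. Its normalized intensities were 42.8, 35.9, 16.2, 28.9 and 15.5 after TAB and 33.1, 28.0, 10.5, 18.0 and 28.9 after sham surgery, and on day 7 neither spot was found. With all spots at their measured values, the mean log2 ratio of Adrb3 was 0.23 (SE 0.25, 95% interval −0.38 to 0.84, limma adjusted p = 0.566). At these values TAB was 1.61-fold higher on day 14 (sham spot not found) and 1.86-fold lower on day 28 (TAB spot not found). When a day was left out, the mean ranged from 0.12 (without day 14) to 0.51 (without day 28), with limma adjusted p-values from 0.0564 to 0.819.

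**Figure D2:**
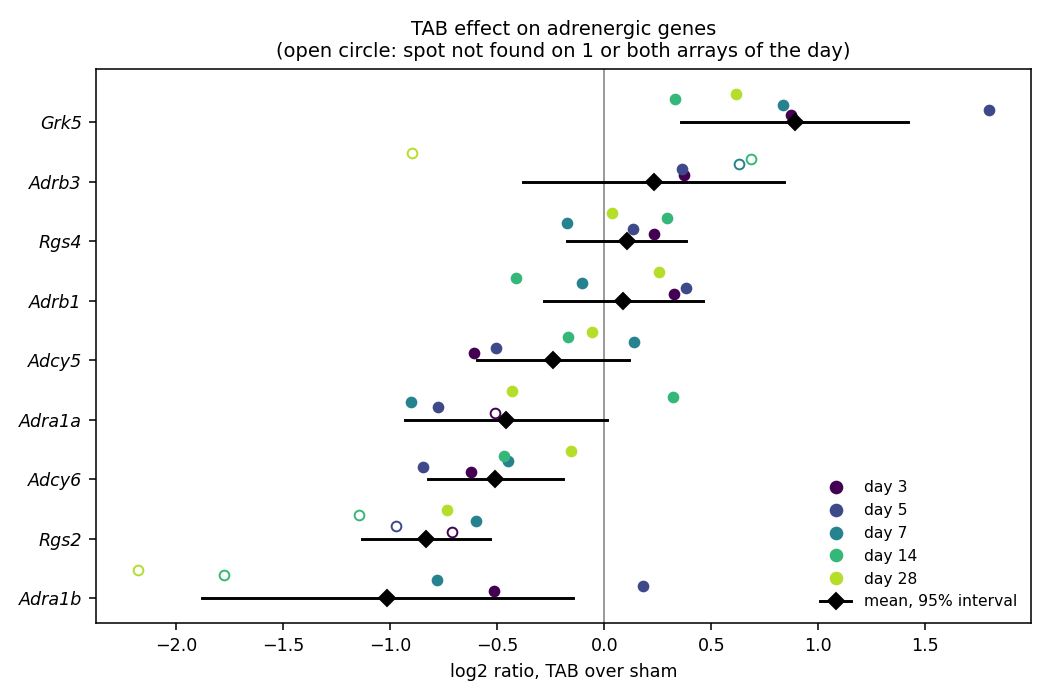
TAB effect on the 9 genes as log2 ratio of TAB over sham, with 1 circle per day coloured by day, open where the spot was not found on 1 or both arrays of that day, and the mean with its 95% interval from limma as a black diamond and line. The intervals of Grk5 (0.36 to 1.42), Rgs2 (−1.13 to −0.54), Adcy6 (−0.83 to −0.19) and Adra1b (−1.88 to −0.15) leave out 0 before adjustment for the number of probes, which was so for 6750 of all 19976 kept probes.

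Of the 45 ratios of a gene and day, 2 passed 2 SDs of their day, both of Adra1b. The share of all kept probes past that limit was 5.4% (day 3), 5.46% (day 5), 5.49% (day 7), 5.66% (day 14) and 5.91% (day 28). The day 5 ratio of Grk5 (1.80) was just inside the limit of 1.87. A day has 1 sample per operation, so these values have no replicate check.

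The TAB effect on days 14 and 28 was set against that on days 3, 5 and 7. Adra1b had a mean log2 ratio of −0.37 on the early days and of −1.98 on the late days, when neither TAB spot was found. With these spots at their measured values the difference was −1.61 (SE 0.36, limma adjusted p = 0.425). For Grk5 the ratio was 1.17 early and 0.47 late, with a difference of −0.70 (SE 0.37, limma adjusted p = 0.543). The ratio of Adcy6 was −0.64 early and −0.31 late. That of Rgs2, with 3 TAB spots not found and taken at their measured values, was −0.76 early and −0.94 late. No gene passed, and the share of all kept probes that passed in limma was 0%, with 2086 of 19976 probes under 0.05 before adjustment.

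Among the other genes of the pathway, 15 of 125 measured genes were up-regulated and 12 down-regulated after TAB, or 12% and 9.6%. Of these 125 genes 6 were found on no array, including Rgs12, which is counted as up-regulated. Over all 16113 genes, each taken by its brightest probe, 8.33% were higher and 6.73% lower. The median log2 ratio was 0.03 over the pathway genes and −0.03 over all genes. None of these 27 calls was made when day 3, 5, 7 or 14 was left out, with a fit over 4 days and few calls over all probes.

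**Figure D3:**
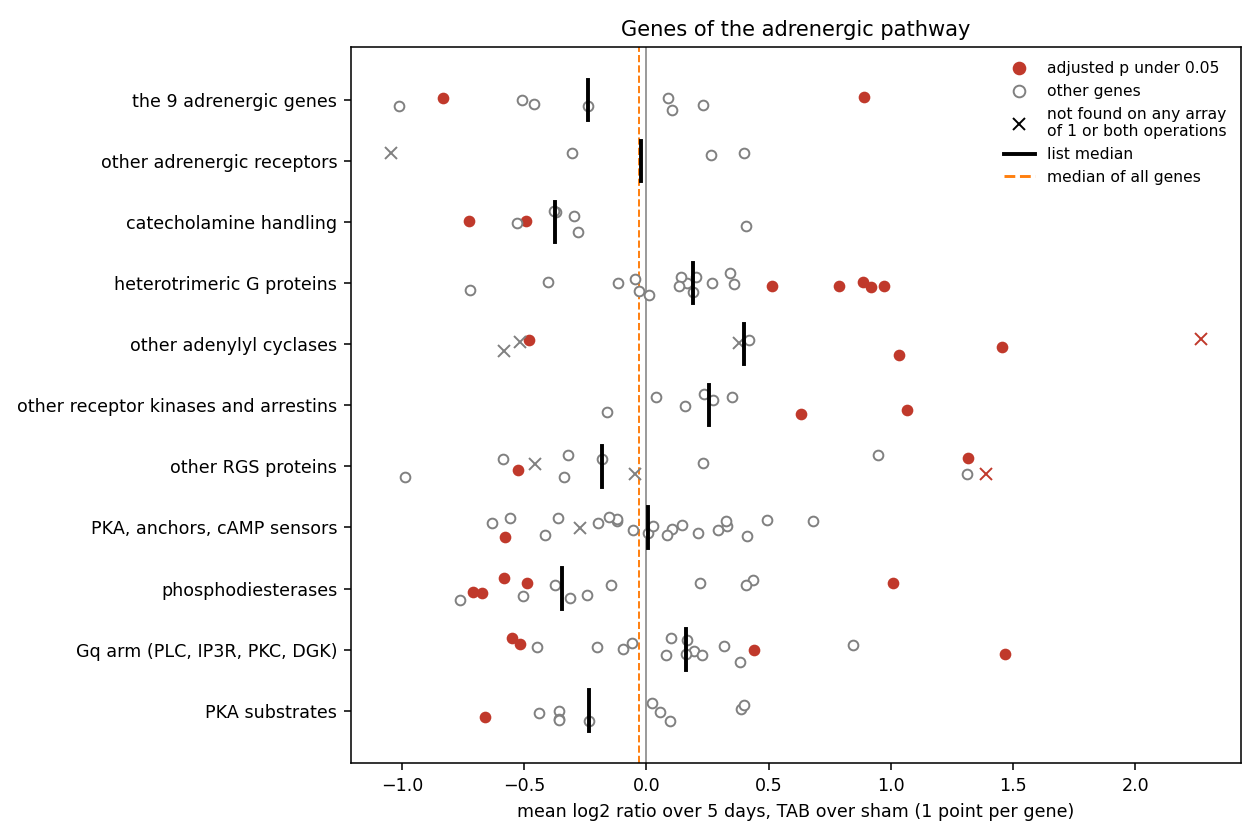
Mean log2 ratio of TAB over sham over the 5 days for the 9 genes and for the other pathway genes by list, with 1 point per gene by its brightest probe, red where the adjusted p was under 0.05, crosses where the spot was found on no array of 1 or both operations, black bars at list medians and a dashed line at the median of all genes. Red points lie on the right for G proteins, and for phosphodiesterases 4 of 5 red points lie on the left.

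None of the 4 other adrenergic receptors with a probe passed the threshold, and none of these was found on all arrays. Adra1d was found on no array.

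Of 8 measured genes for the synthesis, uptake and breakdown of catecholamines, 2 were down-regulated and none was up-regulated, and 7 had ratios below 0, with a median of −0.38. Both calls were for removal of catecholamines. Maob, a monoamine oxidase, had a log2 ratio of −0.73 (SE 0.13, limma adjusted p = 0.0279), and Slc22a3, a transporter that takes up catecholamines outside nerves, had −0.49 (SE 0.11, limma adjusted p = 0.0405). For Th, the rate-limiting enzyme of catecholamine synthesis, the ratio was −0.38 (limma adjusted p = 0.200), and for Dbh, which makes noradrenaline from dopamine, −0.53 (limma adjusted p = 0.0719). Th and Dbh also stood in the list of Schwann cell and sympathetic neuron markers, whose summed intensity was 376 to 433 after TAB and 495 to 579 in sham hearts. None of the 5 measured markers of that list passed the threshold. In tissue RNA, fewer cells of a type and less RNA per cell cannot be told apart.

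Of 19 measured G protein subunits, 5 were up-regulated and none was down-regulated, with a median log2 ratio of 0.19. Gng2, a gamma subunit, had a ratio of 0.92 (SE 0.13, limma adjusted p = 0.0191), Gng10 0.79 (SE 0.12, adjusted p = 0.0208), with 0.71 by its other probe, and Gng12 0.52 (SE 0.11, adjusted p = 0.0382). Probes disagreed for both alpha subunits that passed. Gnas encodes the stimulatory alpha subunit that links beta receptors to adenylyl cyclase. Its brightest probe had a ratio of 0.97 (SE 0.22, limma adjusted p = 0.0388), and its 2 other probes −0.72 (adjusted p = 0.0629) and −1.03 (adjusted p = 0.209). Gnao1 had 0.88 (SE 0.11, limma adjusted p = 0.0165) by its brightest probe and −0.08 and 0.05 by the others. The direction for Gnas thus depends on the probe.

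Among the 8 other adenylyl cyclases, 3 were up-regulated and 1 was down-regulated. Adcy7, known from blood cells, had a log2 ratio of 1.45 (SE 0.26, limma adjusted p = 0.0277), and Adcy3 1.04 (SE 0.23, adjusted p = 0.0374). Adcy2 was found on 3 TAB arrays and on no sham array. It was 3.38-fold higher with each sham value set to no less than the lowest found on its array. At measured values it passed the threshold (limma adjusted p = 0.0297). Adcy9 had a ratio of −0.48 (SE 0.12, limma adjusted p = 0.0456).

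Both arrestins that bind phosphorylated receptors were up-regulated. Arrb2 had a log2 ratio of 1.07 (SE 0.14, limma adjusted p = 0.0178) and Arrb1 0.63 (SE 0.11, limma adjusted p = 0.0255). Adrbk1, the gene of Grk2 and the other main receptor kinase of the heart, had −0.16 (SE 0.10, limma adjusted p = 0.283). The 5 other kinases and arrestin relatives did not pass. Of 13 other RGS genes, Rgs10 was up-regulated, with a ratio of 1.32 (SE 0.15, limma adjusted p = 0.0152), and Rgs7 was down-regulated, with −0.52 (SE 0.10, limma adjusted p = 0.0309). Rgs12 passed as higher, but its spot was found on no array, so no fold is given.

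Downstream of cAMP, 1 of 23 measured genes for PKA, its anchors and inhibitors and other cAMP sensors passed the threshold. Akap7, which anchors PKA near calcium-handling proteins, had a log2 ratio of −0.58 (SE 0.13, limma adjusted p = 0.0376) and −0.65 by its other probe. Prkaca, the main catalytic subunit of PKA, had −0.05 (SE 0.11, limma adjusted p = 0.763).

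Of 14 measured phosphodiesterases, which break down cyclic nucleotides, 4 were down-regulated and 1 was up-regulated, with a median log2 ratio of −0.34. The cAMP-specific Pde4c had a ratio of −0.67 (SE 0.15, limma adjusted p = 0.0378) and Pde4d −0.49 (SE 0.10, adjusted p = 0.0335), with −0.06 by another Pde4d probe, while its remaining probe was found on no array. Pde1b had −0.71 (SE 0.16, limma adjusted p = 0.0402). For Pde3a the ratio was −0.58 (SE 0.13, limma adjusted p = 0.0388), with the spot found on 2 of 5 TAB arrays. Pde1a, which calcium and calmodulin activate, was the one with higher values, at 1.01 (SE 0.14, limma adjusted p = 0.0184). Of its 3 other probes 2 had ratios of 1.17 and 0.98 and 1 had 0.07.

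In the Gq arm, which carries the signal of alpha-1 receptors, 2 of 17 measured genes were up-regulated and 2 down-regulated. Prkcb, a protein kinase C, had a log2 ratio of 1.47 (SE 0.31, limma adjusted p = 0.0354), and Prkch 0.44 (SE 0.10, adjusted p = 0.0440). The diacylglycerol kinases Dgkz and Dgkg had −0.55 (SE 0.11, limma adjusted p = 0.0323) and −0.52 (SE 0.10, adjusted p = 0.0300). Of 11 PKA substrates in excitation and contraction, Cacnb2, a subunit of the L-type calcium channel, was down-regulated, at −0.66 (SE 0.13, limma adjusted p = 0.0312). Pln, the inhibitor of the calcium pump of the sarcoplasmic reticulum, had −0.36 (SE 0.19, limma adjusted p = 0.245).

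All 7 measured leukocyte markers were up-regulated, as were 4 of 6 fibroblast markers. The summed intensity of the leukocyte markers was 8093, 11076, 9335, 4680 and 3905 after TAB, from day 3 to day 28, against 2201 to 2862 in sham hearts. That of the fibroblast markers was 40384 to 56035 after TAB and 30731 to 32821 in sham hearts, with Col1a1 and Pdgfra removed as too low. Dcn, with a log2 ratio of 0.19, made up 54.2% to 87.6% of this sum, and Col1a2, Col3a1 and Postn had ratios of 3.49, 3.68 and 3.37. A removed Pdgfra spot was found on 2 sham arrays and on 0 TAB arrays. The defining leukocyte marker Ptprc was found on all arrays. Grk5 after TAB was also higher on days 3, 5 and 7 than on days 14 and 28. Heart muscle cell markers summed to 302684 to 329020 after TAB and 300681 to 337000 in sham hearts, with 0 of 10 called. Myl2 in this list was saturated on 4 TAB and 5 sham arrays, and the other 9 markers summed to 237050 to 263386 after TAB and 235042 to 271365 in sham hearts. The part of these cells in the values of Grk5, Arrb1, Arrb2, Adcy7, Prkcb and Rgs10 was not tested.

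**Figure D4:**
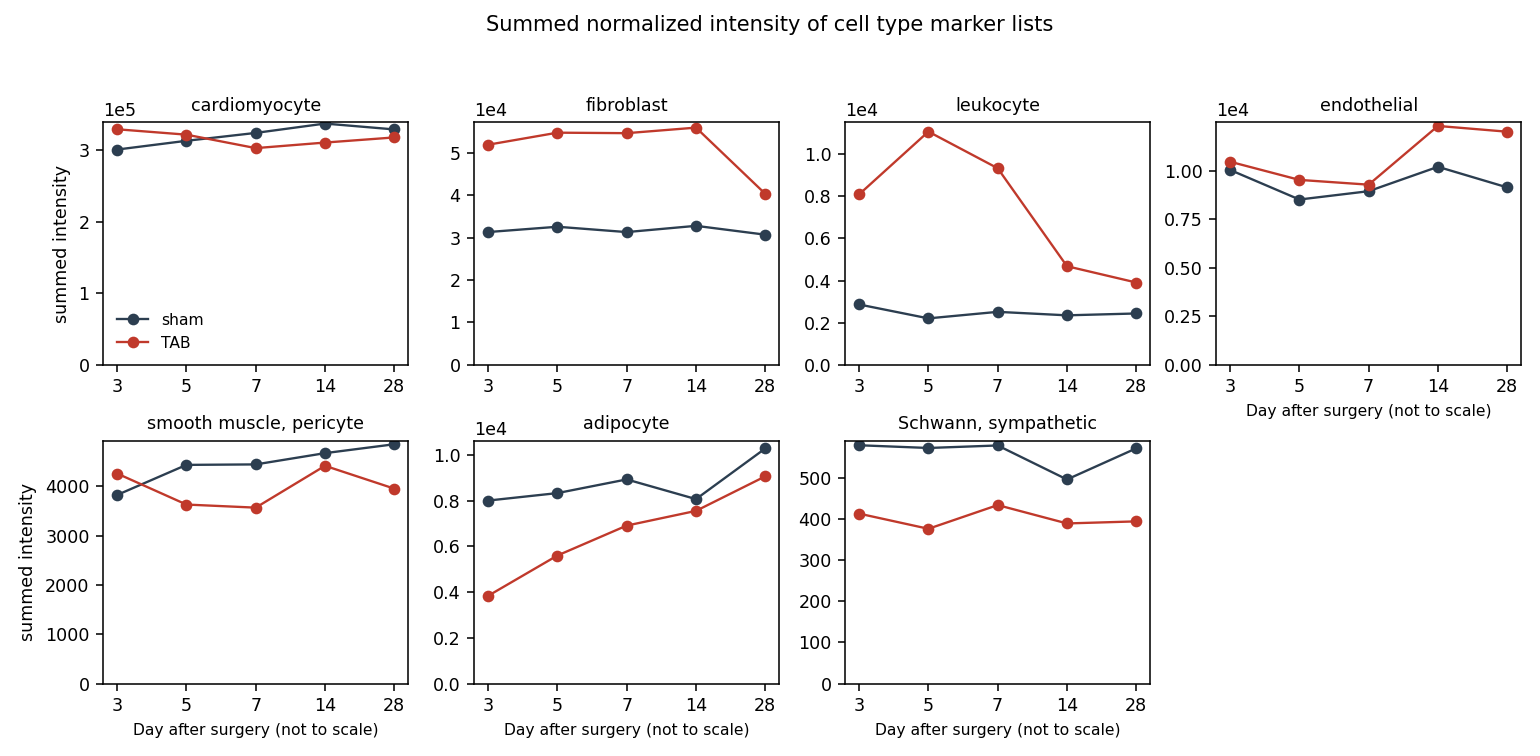
Summed normalized intensity of 7 cell type marker lists by day after surgery, with 1 point per sample, TAB in red and sham in dark blue, and vertical axes that start at 0. TAB lies above sham on all 5 days for leukocyte, fibroblast and endothelial markers and below it on all 5 days for adipocyte markers, whose sum is mostly Fabp4, and for Schwann cell and sympathetic neuron markers.

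Of the endothelial markers 0 of 6 were called, and their sum was higher after TAB on all 5 days (9276 to 12302 after TAB and 8511 to 10197 in sham hearts). Egfl7 made up 48.8% to 56.4% of this sum. Single endothelial markers were higher after TAB on 2 days (Pecam1, Tie1) to 5 days (Egfl7). Of the smooth muscle and pericyte markers 2 of 7 were higher (3567 to 4415 against 3824 to 4852), with Pdgfrb found on no array. Of the adipocyte markers 1 of 5 was higher, and Lep was found on no array. Their sum was lower after TAB on all 5 days, with 3839, 5603, 6913, 7557 and 9069 after TAB against 8008, 8336, 8934, 8072 and 10290.1. Fabp4, which is not particular to adipocytes, made up 86.6% to 97.1% of this sum, with a log2 ratio of −0.51 (limma adjusted p = 0.114), and Adipoq and Plin1, with −0.10 and −0.09, stayed near 0.

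The genes with the most similar profiles were sought by Pearson r over the 10 samples among 11050 genes found on all arrays, as a description with no test. These values share the arrays and the TAB effect. For Rgs2 they were Rnls, which encodes renalase (r = 0.971), and Fam185a (r = 0.953). For Grk5 they were Snrpd3 (r = 0.969) and Neurl3 (r = 0.964), and for Adcy6 Fars2 and Adk, the gene of adenosine kinase (both r = 0.977). The profile of Adra1a was most like those of Nr1d2, a clock repressor (r = 0.957), and Lrrc2 (r = 0.942), and that of Adra1b like those of Ppil1 (r = 0.932) and Abca4 (r = 0.922). For Adrb1 the nearest were Ankrd2 (r = 0.924) and Popdc2, a cAMP-binding membrane protein (r = 0.895). Adrb3 was nearest to Ak3 (r = 0.899) and Gins4 (r = 0.874), Adcy5 to Atp6v1d (r = 0.902) and Rasl10a (r = 0.900), and Rgs4 to Tmem146 (r = 0.947) and Wnt7b (r = 0.920).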

How the data were processed

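Left-ventricle RNA of 5 TAB and 5 sham samples was labelled with Cy5 and hybridized to 1-colour oligonucleotide arrays. The authors deposited the intensity of each spot after background subtraction, by a method not given in the sources used here, without bringing the arrays to 1 scale. A flag, whose negative value was read as a spot not found, and a detection p-value, not used here, came with it. Precision is limited by the number of arrays.

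Each array was scaled to the common median of 47.1. Of 26423 probes, 6447 fell below 1 on at least 1 array and were removed. Quantile normalization over all 10 arrays then gave each rank its median, and log2 was taken. The TAB effect was fitted by lmFit and eBayes of limma, without trend or robust options, with day as a block over all 19976 kept probes, with Benjamini-Hochberg adjustment and a threshold of 0.05. No p-value was adjusted over a list alone. A gene of a list was represented by its brightest kept probe, by mean log2 value over the 10 samples. For a spot found on no array of 1 operation, values there were set to no less than the lowest found on each array before a fold was taken. Other spots not found entered the folds of a day at their measured values, as did all spots not found in the fit. Intensities of at least 65000 were taken as saturated. On a single day, a log2 ratio over 2 SDs of that day was called. The fit was first tested on simulated data.

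The 9 genes and the gene lists were chosen with earlier results of these data known. Named from each list were up to 3 called genes of largest absolute ratio, Adrbk1, Gnas, Arrb1, Arrb2, Prkaca and Pln, and for each of the 9 genes the 2 with the highest Pearson r. Some items under this rule are not reported here. Gng10, Gng12, Adcy9, Pde3a, Pde4d, Prkch, Th, Dbh, Adra1d and the single markers fell outside this rule and were named after their values were seen. Alternatives were other normalizations, offsets, filters, variance models and probe rules, a fit without the day block, and each day left out. limma 3.58.1 ran in R 4.3.3. Other steps ran in Python 3.11.15 (pandas 2.3.3, numpy 2.4.6), with figures by matplotlib 3.10.9.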

Additional observations from a re-analysis of the deposited data

How the results depend on the processing

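Each of the 9 genes kept the sign of its mean log2 ratio under all 14 or 15 alternatives it was run under. Adra1a, Adrb1, Adrb3, Adcy5 and Rgs4 passed the threshold under none of them. Rgs2 could not be tested among probes found on all 10 arrays. The cause of the changes below was not tested. Each fit with a day left out also has fewer samples.

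With 50 added before log2, 2366 probes were higher and 2524 lower (1492 and 1344 as reported), 25 pathway genes higher and 21 lower (15 and 12 as reported), and 2 of the 9 genes lower (1 as reported); Adcy6 passed at −0.50 (limma adjusted p = 0.0139). The ratios of the dim probes were smaller there, with Rgs2 at −0.41, Adra1b at −0.46, Adra1a at −0.20, Adcy5 at −0.14 and Adrb3 at 0.08. With no probe removed and values below 1 set to 1, 263 probes were higher and 106 lower, 4 pathway genes higher and 0 lower, and 0 of the 9 genes passed in either direction. Grk5 was then at 0.89 (limma adjusted p = 0.0935) and Rgs2 at −0.83 (adjusted p = 0.0527), and 71.3% of calls were higher. With trend and robust on, 2290 probes were higher and 2436 lower, 24 pathway genes higher and 21 lower, and 3 of the 9 genes lower, with Adcy6 at −0.51 (limma adjusted p = 0.00988) and Adra1b at −1.01 (adjusted p = 0.0497). With median scaling alone 1747 probes were higher and 884 lower, with 20 pathway genes higher and 5 lower. Among probes found on all 10 arrays 2032 were higher and 2345 lower, with 20 pathway genes higher and 23 lower. Adcy6 passed there at −0.51 (limma adjusted p = 0.0138). Over genes, by the probe with the largest summed ratio or by the mean of probes, 2 of the 9 genes were lower, with Adcy6 at −0.51 (limma adjusted p = 0.0456 and 0.0436).

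Without day as a block (no replicate block), 2016 probes were higher and 1859 lower, 2 of the 9 genes were lower, and Adcy6 passed at −0.51 (limma adjusted p = 0.0176). It changed no other call of the 9 genes. As deviations from the group means, the pair of samples of a day correlated over probes with r = 0.112 on day 3 and between 0.00148 and 0.0466 on the other days. The pairing rests on the day alone.

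Leaving out each day in turn left 13 to 1455 probes higher and 0 to 1318 lower, with 1455 higher without day 28 and 126 or fewer without any other. Of the pathway genes 0 to 15 were higher and 0 to 10 lower, and of the 9 genes 0 were higher and 0 to 2 lower. Adcy6 ranged from −0.60 (without day 28, limma adjusted p = 0.0446) to −0.42 (without day 5), Grk5 from 0.66 to 1.03, Rgs2 from −0.89 to −0.76, Adra1b from −1.31 to −0.72, Adrb1 from 0.01 to 0.21 and Rgs4 from 0.06 to 0.17. Of the 45 ratios of a gene and day, 4 passed at a log2 ratio of at least 1 and 1 at 3 SDs, against 2 at 2 SDs. No late-minus-early difference of the 9 genes was called under the alternatives run.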
